A study of Homo sapiens with 4 samples.

Results

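Genes of the receptors for glutamate and for γ-aminobutyric acid of type A (GABA-A) were examined for MEIS binding in a culture of neural stem cells of human origin (hNSC). The set held 33 of the 19229 autosomal protein-coding genes. It was made of 3 genes of AMPA receptors (GRIA1, GRIA2 and GRIA4), 5 of kainate receptors (GRIK1 to GRIK5), 7 of NMDA receptors (GRIN1, GRIN2A to GRIN2D, GRIN3A and GRIN3B), the delta receptor gene GRID1, 7 of metabotropic glutamate receptors (GRM2 to GRM8) and 10 of GABA-A receptors (GABRA2, GABRA4, GABRA5, GABRA6, GABRB1, GABRB2, GABRG1, GABRG3, GABRD and GABRP). They were chosen by receptor family and autosomal position and not by any peak near them. A peak was assigned to a gene when its summit, the position of highest signal, lay in the gene body or within 100 kb of either end, and a peak in the windows of neighbouring receptor genes was counted once.

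Glutamate is the main excitatory transmitter of the brain and GABA the main inhibitory one of the adult brain. AMPA, kainate and NMDA receptors are ion channels that glutamate opens, metabotropic glutamate receptors signal through G proteins, and GABA-A receptors are chloride channels assembled from alpha, beta and further subunits. Several of these receptors are already present on neural progenitors, where both transmitters can act before synapses form. MEIS1 and MEIS2 are homeodomain proteins of the TALE class that bind short DNA elements with a TGACA core, often beside PBX partners.

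The series held 2 MEIS chromatin immunoprecipitation (ChIP) samples and 2 Input samples of untreated hNSC, a commercial culture from Gibco kept in StemPro NSC SFM, all of them of 1 cell source. The antibodies K830 (anti-MEISa, which recognises the A isoforms of both proteins) and K844 (anti-MEIS1) were mixed in each ChIP, so that a peak does not tell which protein was bound. The study's methods describe batches of cells of this source that were processed in parallel, so the spread between the replicates may be technical, and a peak list holds no expression, so the labelled cell type was not checked against marker genes. The authors called 36796 peaks in replicate 1 and 47449 in replicate 2 against Input and kept 5169 reproducible sites by the irreproducible discovery rate (IDR), a measure of how well a peak's rank holds up in both replicates. Strength is given as the −log10 p of the peak and as its fold enrichment over Input at the summit, and both are the authors' values. Sites are ordered by the −log10 p of the reproducible list, which for each site described here equalled the lower of both replicate values. The number of reads behind the lists is unknown, and all intervals on shares are Wilson 95% intervals that cover the counting of peaks only.

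A reproducible MEIS site lay in the window of 7 of the 33 genes, which is 21.2% (10.7% to 37.8%), beside 28.0% of all autosomal protein-coding genes, a share that the interval covers. The 7 genes were GRIA1 and GRIK2 with 3 sites each, GRIA4 with 2, and GRIK1, GRIN2B, GRM3 and GABRB2 with 1 each. They added up to 12 sites, 0.232% of the list. All 7 genes had a site in the gene body itself, beside 8.6% of all genes. Over genes of like body length, the shares with a site in the body added up to 11.1 genes. Only 1 of the 12 sites lay in a flank. With the strongest 5169 peaks of replicate 1 in place of the list, that is without replicate 2, 7 sites lay in gene bodies in place of 11.

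Receptor genes are long, and long genes have wide windows, so each gene was set beside the 200 protein-coding genes nearest to it in body length. The shares of those like-length genes that had a site added up to 16.1 genes over the 33, and their mean numbers of sites added up to 35.1, beside the 7 genes and 12 sites observed. More sites than the like-length mean were present at 4 genes (GRIA1, GRIA4, GRM3 and GABRB2), with 26.6% of all genes above their own mean. At GRM3 and GABRB2 this was 1 site each, beside means of 0.91 and 0.975, so that any site put them above. With the 100 nearest genes in body length in place of 200, the count was 3. All 7 genes with a site had a body of at least 221 kb, with a median of 373 kb, and the median of the 26 genes without a site was 146 kb. Of the 20 receptor genes longer than 150 kb, 7 had a site, and the like-length shares of these 20 added up to 12.6. Per length of sequence, the receptor windows covered 15.8 Mb and held 0.757 sites per Mb, and the windows of all protein-coding genes held 1.91 sites per Mb over 1976 Mb. Some windows overlap (GABRA2 with GABRG1, GABRA4 with GABRB1, GABRA5 with GABRG3, and GABRA6 with GABRB2), so these genes are not independent of each other.

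**Figure D1:**
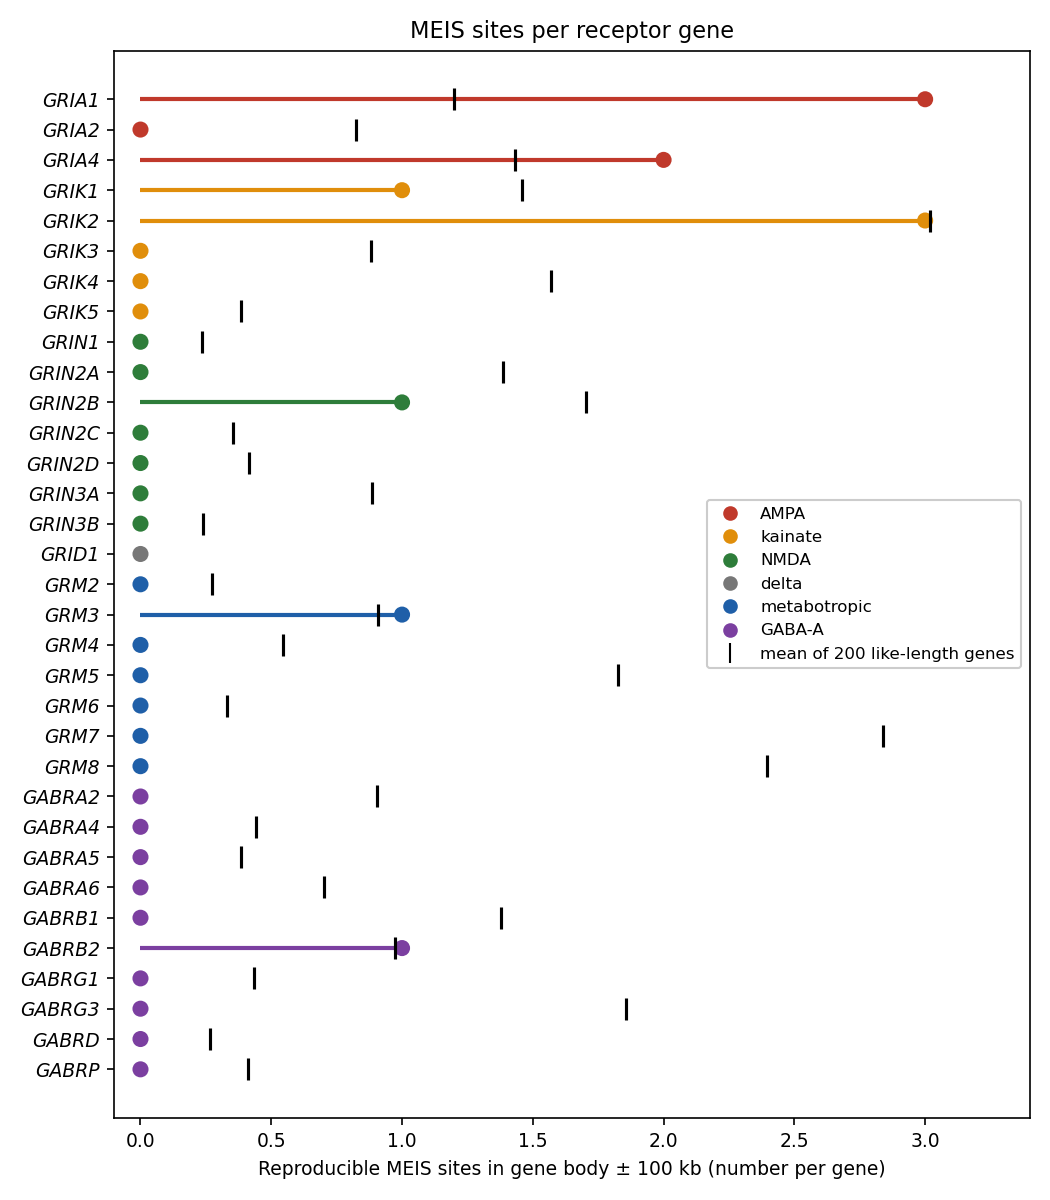
Number of reproducible MEIS sites in the gene body ± 100 kb (x axis) for each of the 33 receptor genes (y axis), with points coloured by receptor class and a black mark at the mean of the 200 protein-coding genes of most similar length. GRIA1 with 3 sites stood furthest to the right of its mark at 1.20, GRIK2 with 3 sites was at its mark of 3.02, and 26 points were at 0.

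Most of the receptor genes had a called peak, but the peaks were sparser than over all genes. Of the 33 genes, 28 had a peak in replicate 1 (90.2% of all genes) and 31 had one in replicate 2 (93.1% of all genes). A replicate 1 peak that overlapped a replicate 2 peak was present at 17 genes, beside 70.1% of all genes. More peaks than the like-length mean were found at 6 genes in replicate 1 (43.3% of all genes) and at 8 in replicate 2 (43.4% of all genes). The windows held 8.20 peaks per Mb in replicate 1 and 12.3 in replicate 2, compared with 14.4 and 18.2 over the windows of all genes. Both replicates thus gave a lower density at the receptor genes than over all genes. The only receptor gene with no peak in either replicate was GRIK3, a kainate subunit gene, whose nearest peak was 394 kb from the gene body in both.

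**Figure D2:**
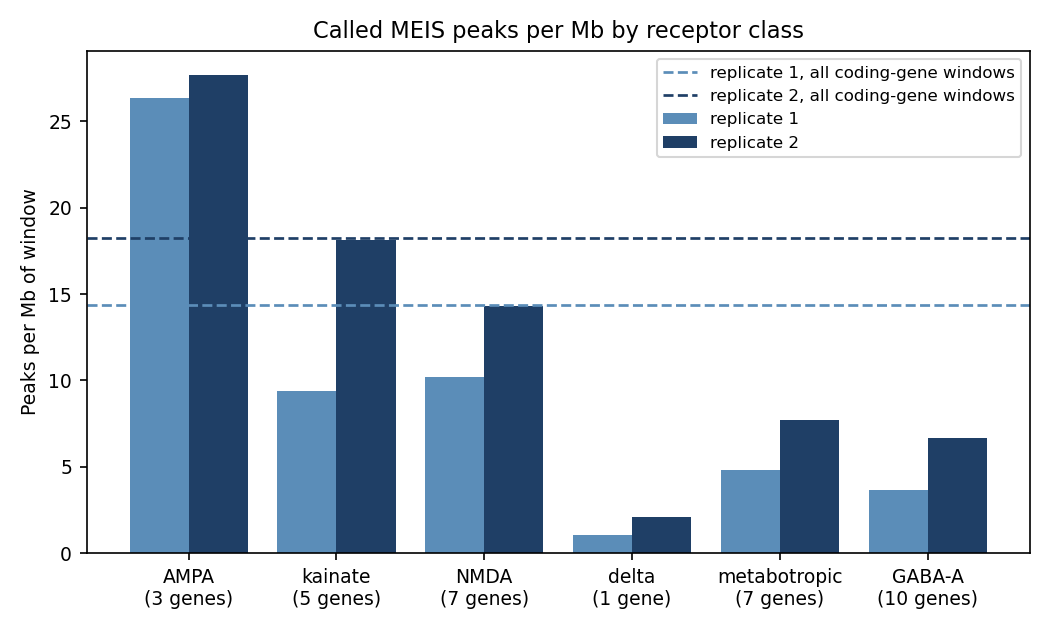
Called MEIS peaks per Mb of window (y axis, from 0) in each receptor class (x axis), with a pale bar for replicate 1 and a dark bar for replicate 2 and dashed lines at the density over the windows of all protein-coding genes. The AMPA genes were above both lines at 26.4 and 27.7 peaks per Mb, the kainate genes reached 18.1 in replicate 2, and the metabotropic, delta and GABA-A genes stayed at 7.74 or less.

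AMPA receptors mediate most fast excitatory transmission. Their 3 genes held 5 of the 12 sites, 3.38 per Mb, where the like-length means added up to 3.46 sites. Counting only sites whose nearest TSS was that of a receptor gene left 2 at the AMPA genes and 4 at the kainate genes, so the order of these classes rests on the rule of assignment. GRIA1 and GRIA4 encode subunits that form calcium-permeable channels when the GRIA2 subunit is missing, and GRIA2 had no reproducible site. The strength of each AMPA site in both replicates follows, beginning with the runs around the summits of the stronger 3, read from the GRCh37 plus strand 5′ to 3′. In all runs shown here, capitals mark each TGACA or its complement TGTCA, with the extra base where it extends to the full MEIS core TGACAG or CTGTCA.
GRIA1 intron 2, chr5:152952586-152952666: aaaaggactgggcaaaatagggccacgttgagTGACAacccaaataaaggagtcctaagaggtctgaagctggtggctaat
GRIA4 intron 14, chr11:105813641-105813721: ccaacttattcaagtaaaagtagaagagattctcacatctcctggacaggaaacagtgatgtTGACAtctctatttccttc
GRIA4 intron 10, chr11:105785903-105785983: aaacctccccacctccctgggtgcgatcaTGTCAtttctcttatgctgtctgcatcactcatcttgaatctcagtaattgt

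The highest-ranked site of the whole set lay in intron 2 of GRIA1 (chr5:152951826-152953180), 82.4 kb downstream of the canonical transcription start site (TSS), and ranked 367 of 5169. Its −log10 p values were 172 (replicate 1) and 197 (replicate 2), and the enrichment was 17.8-fold and 32.0-fold. No TGACAG lay within 250 bp of its summit. The sequence above holds TGAGTGACA, a PBX-type TGA followed by the shorter core, centred 7.5 bp from the summit. TGAGTGACA or TGATTGACA lay within 50 bp of the summit at 1 of the 12 sites (8.33%), beside 6.83% of all sites. A shorter annotated GRIA1 transcript starts 162 bp from the summit, so that this site is distal to the canonical start and next to an alternative one. GRIA1 had 2 further sites. One lay in intron 11 (chr5:153129460-153130401) with −log10 p values of 17.0 (replicate 1) and 33.5 (replicate 2). The other lay 87.5 kb beyond the 3′ end of the gene (chr5:153280511-153281501), with values of 18.5 and 29.8. Its nearest TSS was that of FAM114A2, 138 kb away. A TGACAG covers the summit of that flank site. The intron 11 run holds neither core, and the nearest TGACA there is 44.5 bp from the summit.
GRIA1 3′ flank, chr5:153280860-153280940: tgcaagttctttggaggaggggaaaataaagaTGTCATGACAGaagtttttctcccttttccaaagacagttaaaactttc
GRIA1 intron 11, chr5:153129937-153130017: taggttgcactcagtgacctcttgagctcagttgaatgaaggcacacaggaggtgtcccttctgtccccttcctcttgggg

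GRIA1 was above the like-length mean in every list. It had 3 sites beside a like-length mean of 1.20, and 14.0% of the like-length genes had as many. Its window held 15 peaks in replicate 1 and 27 in replicate 2, beside like-length means of 8.07 and 11.0. Among its replicate 1 peaks, 11 met one of replicate 2. One shared peak outside the reproducible list, in intron 2 (chr5:152997820-152998318), had −log10 p values of 10.7 (replicate 1) and 32.5 (replicate 2). It is shown because it holds a pair of TGACAG cores and a further TGACA close to its summit.
GRIA1 intron 2, outside the list, chr5:152998040-152998120: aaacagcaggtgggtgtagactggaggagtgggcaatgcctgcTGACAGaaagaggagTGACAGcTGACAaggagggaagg

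GRIA4 had 2 sites near the 3′ end of the gene. The stronger, in intron 14 (chr11:105813171-105814102), lay 333 kb downstream of the GRIA4 TSS at 89.5% of the body length, closer to the TSS of MSANTD4 (79.3 kb) than to that of GRIA4. Its −log10 p values were 51.7 (replicate 1) and 68.1 (replicate 2). The other, in intron 10 (chr11:105785449-105786535), had 24.6 and 45.4. Its nearest TSS was also that of MSANTD4, 107 kb away. Both GRIA4 sites lacked TGACAG within 250 bp and held TGACA at 24.5 bp and 8.5 bp from the summit. The like-length mean was 1.43 sites, and 33.0% of like-length genes had as many as GRIA4. Its 14 peaks in replicate 1 and 12 in replicate 2 stood beside like-length means of 8.97 and 12, so that replicate 1 was above its mean and replicate 2 was at it.

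GRIA2, whose edited subunit makes AMPA receptors impermeable to calcium, had a like-length mean of 0.825 sites and none of its own. The replicates differed at this gene. Replicate 1 had 10 peaks and replicate 2 had 2, where the like-length means were 6.01 and 7.62. Both replicate 2 peaks overlapped a replicate 1 peak. One in exon 16 had −log10 p values of 9.80 (replicate 1) and 10.9 (replicate 2), and one in intron 3 had 10.7 and 9.57.

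The kainate receptor genes followed, with 4 sites in 3.31 Mb (1.21 per Mb), beside 7.32 from the like-length means. Kainate receptors act on both sides of the synapse and tune transmitter release. Their peaks differed between the replicates, with 9.37 per Mb in replicate 1 and 18.1 in replicate 2. When the strongest 5169 peaks of 1 replicate stood in for the reproducible list, the class had 2 sites without replicate 1, 1 at GRIK2 and 1 at GRIK1, and 2 without replicate 2, both at GRIK2.

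GRIK2, the largest gene of the set at 1119 kb, had 3 sites, close to the like-length mean of 3.02, and 50.5% of genes of that length had as many. Its annotated body begins far upstream of the canonical TSS, because longer transcripts are included. The strongest lay in intron 2 (chr6:102045178-102046380), 204 kb downstream of the TSS, and was one of the few stronger in replicate 1, with a −log10 p of 180.2 there and 104 in replicate 2. The enrichment was 19.7-fold and 21.9-fold. A second site in intron 2 (chr6:101918247-101919368), 77.1 kb from the TSS, had values of 44.5 and 20.5. Another in intron 11 (chr6:102331053-102331958) had 14.4 and 18.6, near the lower end of the list at 12.5. Without replicate 1 GRIK2 had 1 site. The runs at both intron 2 sites follow. The stronger has a TGACAG 93 bp from its summit and a TGACA nearer to it, and the weaker has a TGACA alone.
GRIK2 intron 2, stronger site, chr6:102045783-102045928: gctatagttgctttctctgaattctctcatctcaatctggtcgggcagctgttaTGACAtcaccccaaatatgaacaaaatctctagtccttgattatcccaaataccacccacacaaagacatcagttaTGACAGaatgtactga
GRIK2 intron 2, weaker site, chr6:101918605-101918685: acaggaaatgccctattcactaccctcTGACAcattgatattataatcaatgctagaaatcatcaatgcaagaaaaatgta

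GRIK1, which like GRIK2 encodes a subunit able to form channels by itself, had 1 site in intron 1 (chr21:31201621-31202354), 110.2 kb downstream of its TSS. It ranked last of the 12 by the lower replicate value, with −log10 p values of 13.2 (replicate 1) and 23.2 (replicate 2), and it was not among the strongest 5169 peaks of replicate 1. The like-length mean was 1.46 sites. Its sequence was added after the values were seen, because a CTGTCA and a TGACA lie within 29 bp of its summit.
GRIK1 intron 1, chr21:31202027-31202109: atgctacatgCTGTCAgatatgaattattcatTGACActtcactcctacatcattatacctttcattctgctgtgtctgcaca

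GRIK4 and GRIK5, whose subunits need a partner from GRIK1, GRIK2 or GRIK3, had no site, with like-length means of 1.57 and 0.385. GRIK4 had 7 peaks in replicate 1 and 11 in replicate 2, of which 3 overlapped. The strongest of these, in a flank, had −log10 p values of 8.26 (replicate 1) and 9.78 (replicate 2). GRIK5 had 2 and 6, none of which overlapped, and the nearest reproducible site was 3021 kb away, the largest distance in the set. GRIK3 had a like-length mean of 0.880 sites.

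The NMDA receptor genes held 1 site in 2.65 Mb, beside 5.22 from the like-length means. NMDA receptors need both glutamate and a co-agonist and admit calcium once magnesium block is relieved. The site lay in intron 4 of GRIN2B (chr12:13892748-13893981), the gene of the glutamate-binding subunit that prevails early in development, 241 kb downstream of its TSS. Its −log10 p values were 27.1 (replicate 1) and 16.8 (replicate 2), and the summits were 161 bp apart, against a median of 11.0 bp over the 12 sites. Without replicate 1 the class had 0 sites and without replicate 2 it had 2, the other one at GRIN3B. The run reaches from the summit to the nearer of the TGACAG cores, 88 bp away.
GRIN2B intron 4, chr12:13893375-13893515: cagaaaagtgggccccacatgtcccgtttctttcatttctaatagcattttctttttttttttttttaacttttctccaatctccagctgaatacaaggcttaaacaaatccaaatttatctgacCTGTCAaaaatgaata

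GRIN1, the gene of the subunit that every NMDA receptor contains, had 1 peak in replicate 1 and 3 in replicate 2, none in the gene body and none shared. GRIN2A, the gene of the subunit that prevails in the mature forebrain, had 2 and 2 peaks beside like-length means of 9.24 and 12.5, and 1 was shared at 3.90 and 3.38. GRIN2C, GRIN2D, GRIN3A and GRIN3B had no site, and their like-length means were 0.355, 0.415, 0.885 and 0.240. GRIN3A had 1 shared peak, in a flank and 364 bp from the TSS of RNF20, with 4.64 (replicate 1) and 6.60 (replicate 2). The nearest site to GRIN3B was 163 kb outside its body. GRID1, whose product binds cerebellins at the synapse and is not opened by glutamate, had 1 peak in replicate 1 and 2 in replicate 2 in a body of 767 kb. Its like-length means were 13.2 and 18.1 peaks, and both of its counts were far below them. The nearest reproducible site was 132 kb outside the body, and the site just inside the 100 kb limit was the flank site of GRIA1.

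The metabotropic receptor genes held 1 site in 4.14 Mb, where the like-length means added up to 9.12. It lay in intron 1 of GRM3 (chr7:86279952-86280827), a receptor that lowers cyclic AMP, and at 7.24 kb it was the closest of the 12 to a canonical TSS. Its −log10 p values were 16.9 (replicate 1) and 39.6 (replicate 2), and it was not among the strongest 5169 peaks of replicate 1, so that without replicate 2 the class had 0 sites. Other shared peaks of GRM3 lay both near its start and further along the gene. The replicates shared a peak at the promoter (4.25 in replicate 1 and 6.54 in replicate 2), 1 at 4.34 kb into intron 1 (7.39 and 12.3) and 1 at 16.1 kb (10.7 and 11.0). They also shared peaks 63.7 kb (5.36 and 6.45) and 181.6 kb (4.78 and 5.04) downstream of the TSS. The run around the intron 1 site, the site nearest a promoter, holds neither core.
GRM3 intron 1, chr7:86280426-86280506: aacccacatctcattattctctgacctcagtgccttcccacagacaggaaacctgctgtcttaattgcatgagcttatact

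GRM4, a presynaptic receptor that lowers transmitter release, had no site, but it held the shared peak outside the list with the highest lower value of both replicates. It lay in intron 3 (chr6:34050569-34051261), 63.0 kb downstream of the TSS, with −log10 p values of 16.2 (replicate 1) and 13.8 (replicate 2), and its sequence is shown because a CTGTCA covers the summit.
GRM4 intron 3, outside the list, chr6:34050861-34050941: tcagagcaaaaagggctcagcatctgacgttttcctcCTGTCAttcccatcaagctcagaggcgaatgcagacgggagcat

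The remaining metabotropic genes had few peaks for their length. GRM7, at 972 kb, had 2 peaks in replicate 1 and 5 in replicate 2, beside like-length means of 16.1 and 21.5, and no site where 80.5% of like-length genes had one. GRM8, at 814 kb, had 0 and 6 peaks, beside 13.8 and 18.9. GRM5, the gene of a receptor coupled to phospholipase C, had 3 and 1, beside 11.1 and 14.7. All 3 genes were below their like-length mean in both replicates, and none had a peak shared by the replicates. GRM2 and GRM6 are short, at 11.5 kb and 18.6 kb, and had no site.

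The GABA-A receptor genes held 1 site in 3.30 Mb, beside 7.75 from the like-length means, and 3.64 and 6.67 peaks per Mb. That site ranked second of the 12. It lay in intron 5 of GABRB2 (chr5:160795737-160796725), the gene of a beta subunit common in adult receptors, 177 kb downstream of its TSS, and ranked 600 of 5169. Its −log10 p values were 118 (replicate 1) and 139.6 (replicate 2), with an enrichment of 12.9-fold and 31.4-fold, and the summits were 3 bp apart. GABRB2 had only 1 other peak in replicate 1 and none in replicate 2, so that a strong site stood in a window with few peaks (like-length means 6.93 and 8.96). The run extends to the TGACAG 88 bp from the summit.
GABRB2 intron 5, chr5:160796220-160796360: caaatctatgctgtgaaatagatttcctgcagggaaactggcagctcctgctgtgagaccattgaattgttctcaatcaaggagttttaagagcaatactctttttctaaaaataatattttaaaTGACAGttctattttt

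The same site lay 178 kb outside the body of GABRA6, the gene of a cerebellar alpha subunit, and so beyond its window. The alpha genes GABRA2, GABRA4 and GABRA5 had no site, and the nearest were 688 kb, 1363 kb and 1094 kb away. GABRG3, at 571 kb, had 1 peak in replicate 1 and 5 in replicate 2, beside like-length means of 11.4 and 15.0, and GABRG1, another gene of a gamma subunit, had 0 and 1. GABRB1, at 433 kb, had 3 peaks in each replicate, beside 9.37 and 12.6. GABRD, the gene of the delta subunit, had 1 peak in replicate 1 only, and GABRP, that of the pi subunit, had 1 and 4. Apart from the GABRB2 site, replicate peaks that overlapped were found at GABRA4 (18.1 in replicate 1 and 9.10 in replicate 2), GABRB1 (6.67 and 3.78) and GABRP (5.45 and 3.35), and none of these 3 lay in a gene body. Without replicate 2 the class had 2 sites, the second at GABRA4.

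**Figure D3:**
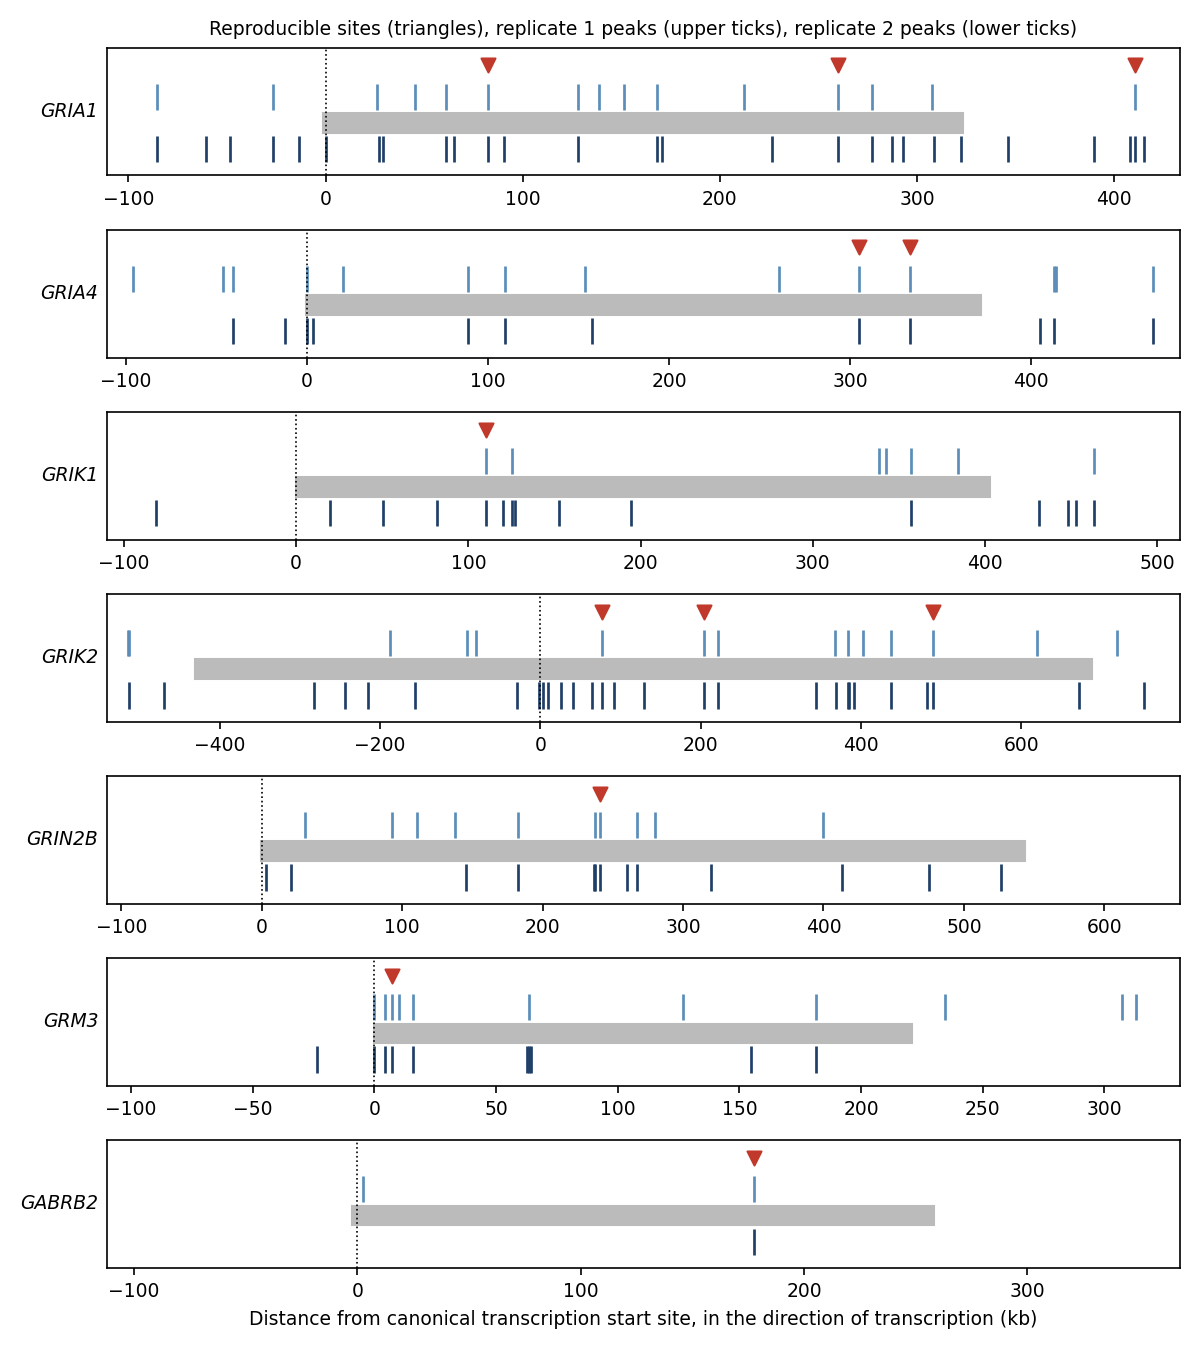
Peaks along the 7 genes with a reproducible site, drawn against the distance from the canonical TSS in the direction of transcription (x axis, kb); grey bars are gene bodies, red triangles are the 12 sites, and ticks above and below the body are peaks of replicate 1 and replicate 2. The triangles sit inside the grey bars except for 1 beyond the 3′ end of GRIA1, and none lies at a dotted TSS line.

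As a group, the receptor sites were weaker than the list they came from. Their median −log10 p was 19.5, beside 29.3 over all sites, and 4 of the 12 were above the median of all sites. These were the strongest site of GRIA1, of GABRB2, of GRIK2 and of GRIA4. An IDR of 0.001 or less was reached by 5 of the 12, beside 60.4% of the list. Both replicates called each of the 12 sites. The enrichment was higher in replicate 2 at 11 of them, with a median of 5.57-fold in replicate 1 and 10.8-fold in replicate 2, and the −log10 p was higher in replicate 2 at 9. The 3 stronger in replicate 1 were both intron 2 sites of GRIK2 and the GRIN2B site. Over all called peaks the median enrichment was also higher in replicate 2, at 3.19-fold beside 2.44-fold in replicate 1. The median −log10 p over all called peaks was 4.68 in replicate 2 and 4.78 in replicate 1. Sites higher in replicate 2 were not counted over the whole list, so whether the receptor sites differ from it in this was not tested.

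**Figure D4:**
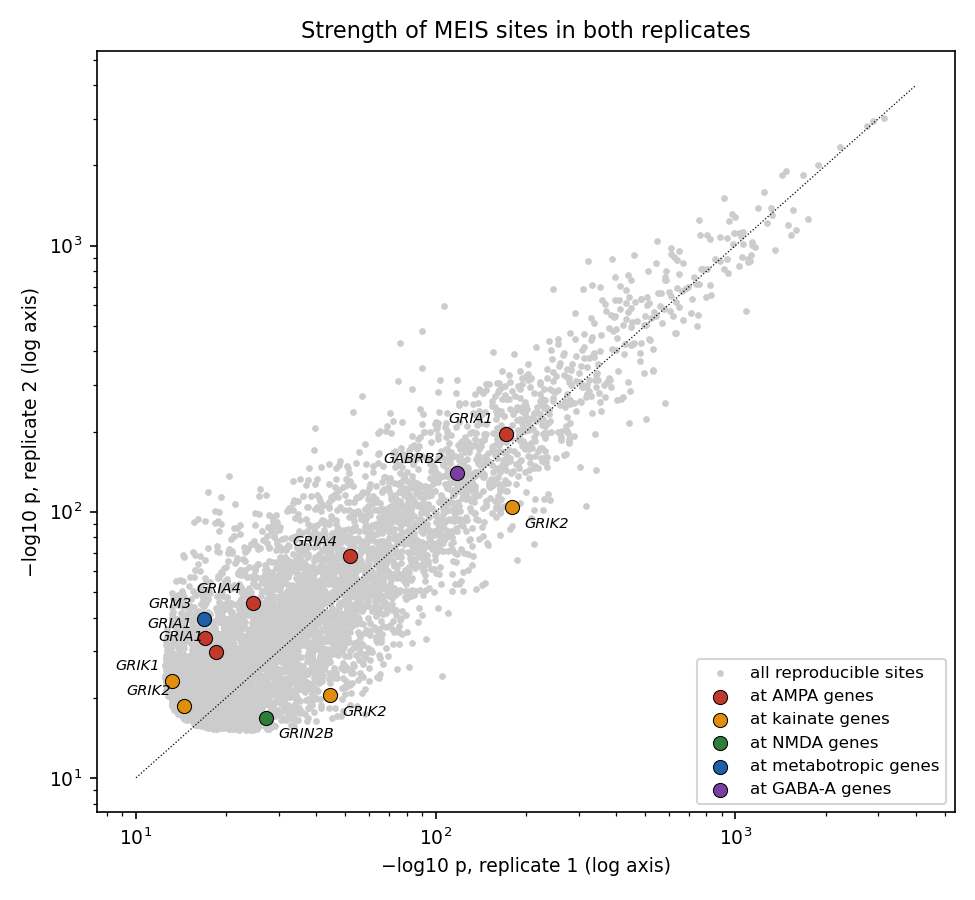
The −log10 p of each reproducible site in replicate 1 (x axis, log scale) against replicate 2 (y axis, log scale), with all 5169 sites in grey, the 12 sites at receptor genes in the colour of their class, and a dotted line of equal values. The strongest sites of GRIA1 (172 and 197), GRIK2 (180.2 and 104) and GABRB2 (118 and 139.6) stood apart from the other 9, which were at 51.7 or less in replicate 1.

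Of the 12 sites, 11 lay in introns, beside 41.9% of all sites, and none lay in an exon, beside 2.22%. The receptor windows are made up largely of long gene bodies, so these shares are not like for like. No reproducible site lay within 1 kb of a canonical TSS of a receptor gene, beside 1.35% of all genes. In replicate 1 a summit was that close at GRIA4 (60 bp, −log10 p 4.38) and GRM3 (106 bp, 4.25), beside 17.5% of all genes. In replicate 2 it was at GRIA1 (241 bp, 4.41), GRIA4 (64 bp, 3.47) and GRM3 (167 bp, 6.54), beside 15.2%. All of these promoter peaks were weak next to the 12 sites.

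The sequence under the sites was searched on both strands in 500 bp around each summit. TGACAG was present at 5 of the 12 sites (41.7%, 19.3% to 68.0%), beside 58.3% of all sites. Within 50 bp of the summit it was present at 2 of them (39.5% of all sites), the GRIA1 flank and GRIK1. The shorter TGACA, searched after the first result was seen, lay within 50 bp at 9 of the 12 (75.0%, 46.8% to 91.1%), beside 70.3% of all sites, so the interval covers the share in the list. The exceptions were the sites of GABRB2, GRM3 and GRIN2B. The full PBX-MEIS composite, with TGAT or TGAG joined to the whole core, was present at 0 of the 12 sites and at 4.93% of all sites, and a count of 0 among 12 leaves an interval up to 24.2%. TGATTGAT, a PBX element, was at 0 (3.08% of all sites).

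Elements of other factors were counted as well, with nothing tested. CATTCC, the TEAD element, was present at 8 sites (66.7%, 39.1% to 86.2%), beside 38.2% of all sites. ACAATG or ACAAAG, the SOX elements, were at 8 as well, beside 71.0%. TAATTA, a homeodomain element, was at 2 (18.2% of all sites) and CAGCTG, an E-box, at 3 (34.2%). TGTTTAC, the FOX element, was at 0 (7.78%). For REST, a repressor of neuronal genes, the right part of its element, GGACAG, was at 4 (28.2%) and the left part, CAGCACC, at 0 (6.75%). The median GC content of the windows was 39.0%, beside 42.0% over all sites.

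Peaks short of the reproducible list were numerous. Of the 130 replicate 1 peaks at receptor genes, 9.23% (5.36% to 15.4%) were in the list, beside 14.1% of all replicate 1 peaks, and 43.1% (34.9% to 51.7%) overlapped replicate 2, beside 49.0%. Of the 195 replicate 2 peaks, 6.15% (3.55% to 10.4%) were in the list, beside 10.9%, and 29.2% (23.3% to 36.0%) overlapped replicate 1, beside 38.0%. In replicate 2 both intervals lay below the share over all peaks, and in replicate 1 both covered it. The peaks that overlapped were the stronger ones, with a median −log10 p of 7.20 (replicate 1) and 7.96 (replicate 2), where the others had 3.62 and 3.38. Shared peaks outside the list numbered 44 at 16 genes, with 27 in gene bodies, and 10 of these 16 genes had no reproducible site. AMPA genes held 16, kainate genes 10, NMDA genes 8, metabotropic genes 7 and GABA-A genes 3. These class counts are not scaled to window length. The same counts over all genes or over genes of like length were not made. TGACAG was present at 23 of the 44 (52.3%, 37.9% to 66.2%), beside 51.3% of the 12864 such peaks in the genome.

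Across the 33 genes, the numbers of peaks in replicate 1 and replicate 2 followed each other (Spearman's rho 0.63, n = 33). The number of sites followed body length less (rho 0.35, beside 0.23 over all genes). These are descriptions across genes, which share the same libraries, and some share windows.

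Sites were counted in the same way at genes that work with these receptors. A list of 49 such genes was drawn from auxiliary subunits, scaffolds, transporters and enzymes, and GABA-B receptors, and 22 had a site (44.9%), where the like-length shares added up to 19.7. Of the 18 scaffold genes 11 had one, beside 8.74 from the shares. They included GRIP1, a scaffold that binds AMPA subunits, with 4 sites (like-length mean 2.15), DLG2, a membrane-associated scaffold of NMDA receptors, with 3 (2.99), and GPHN, the gephyrin that anchors inhibitory receptors, with 3 (2.09). Other long scaffold genes were below their like-length mean, with 0 sites at SHANK2 (2.04), 1 at DLGAP2 (2.83), 2 at DLGAP1 (2.83), 0 at DLGAP4 (1.02) and 0 at DLG1 (0.920). These examples were chosen after their values were seen. Of the 13 auxiliary subunit genes 5 had a site, beside 5.15. Some scaffold genes and some auxiliary subunit genes share a site with another gene of their group, so these genes are not independent of each other. Of the 16 transporter and enzyme genes 5 had one, beside 4.86, and of the GABA-B receptor genes GABBR1 had 1 and GABBR2 none.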

How the data were processed

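MEIS1/2 ChIP-seq libraries of hNSC were sequenced as paired reads of 36 bp. According to the submitters' notes and the study's methods, the authors trimmed reads with cutadapt 1.16, mapped them to GRCh37 with Bowtie2 2.3.0, filtered them with SAMtools 1.2 at a mapping quality of 30 or more, removed duplicates with Picard 2.15.0, called peaks in each replicate with MACS2 (version not given in the sources used here) at p 0.01 against Input, and ran IDR 2.0.3. The filter on mapping quality can hide sites in repeats.

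The deposited replicate lists hold for each peak its fold enrichment over Input (a linear ratio) and its significance as −log10 p and −log10 q. The deposited IDR list holds a score, a −log10 p and a summit for each site. Its 8 columns of per-replicate values were not used, and replicate values are those of the strongest overlapping replicate peak. Read depth is unknown. The wash protocol of each replicate is not given in the sources used here.

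Gene bodies and canonical TSS came from GENCODE 44 mapped to GRCh37, and sequence from the GRCh37 genome. Body length is that of the whole annotated gene. Windows were counted with Python 3.11.15, pandas 2.3.3 and pysam 0.24.0, and intervals with SciPy 1.17.1. Like-length genes were the 200 nearest in log body length outside the set. No test was run between lists. The counting was tested on simulated data. Motifs were literal strings, so weaker forms are not counted.

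Genes with a site were named with all their sites, and the 10 strongest sites with sequence. Genes without a site were named with their strongest peak that overlapped between replicates, where there was one. The receptor genes, the other lists and these rules were chosen with earlier results of these data known. Alternatives changed the window, the IDR, the list, the replicates, the overlap, the TSS, the motif window and the number of like-length genes, each on its own. With 2 replicates, leaving one out used the strongest 5169 peaks of the other.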

Additional observations from a re-analysis of the deposited data

How the results depend on the processing

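Of 177 alternative values, 119 stayed within the limits set for them. For a share the limit was the Wilson interval of its main value, which is wide where sites are few. For a count it was a fold difference from the main value. By that limit, 10 genes with a site in windows of 200 kb stayed beside 7. The number that stayed therefore depends on these limits. Genes with a site (7) ranged from 6 to 7 and distinct sites (12) from 10 to 10 when either replicate was left out. With an IDR of 0.001 or less there were 4 genes (like-length shares 12), 5 sites, 5 in bodies, and 3 AMPA, 1 kainate, 0 NMDA and 0 metabotropic sites. With overlapping peaks of −log10 p of at least 5 there were 13 genes (24.8), 33 sites, 26 in bodies, and 13 AMPA, 7 kainate, 5 NMDA, 6 metabotropic and 2 GABA-A sites. In each of these lists, fewer receptor genes had a site than the like-length shares added up to. Leaving out a replicate gave 7 to 9 sites in bodies (7 without replicate 2), 2 to 2 kainate, 0 to 2 NMDA, 0 to 1 metabotropic and 1 to 2 GABA-A sites. Windows of 200 kb gave 2 NMDA sites and 1 at GRID1, and counting only sites nearest a receptor TSS gave 2 AMPA and 4 kainate sites. TGACA within 50 bp, an alternative chosen after seeing the data, was at 75.0% of sites. Overlap over 50% or more of each interval lowered the shared peaks to 34.6% in replicate 1 and 23.1% in replicate 2, and summits within 100 bp to 25.4% and 16.9%. Peaks of −log10 p of at least 5 raised them to 62.3% and 46.6%, and the shares in the list to 22.6% and 16.4%. Promoters with a summit numbered 5 and 8 within 5 kb in replicates 1 and 2, 5 and 5 with any transcript (1 in the IDR list, at GRIA1), and 0 and 1 at −log10 p of at least 5. The same promoter counts over all genes were not made at these settings, so whether these numbers are high or low cannot be told. Genes of the other lists with a site fell from 22 (28.0% of all genes) to 10 in bodies (8.6% of all genes) and 13 at the stricter IDR (17.4% of all genes). Like-length shares of these genes were not added up at these settings. Where a value moved, the cause was not tested. Read depth, which would limit weak peaks, is unknown. No paired analysis was possible because both ChIP samples belong to 1 group and no values of the Input samples were used here.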

Other observations

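Of the 17 shared peaks outside the reproducible list that lay in the flanks of receptor genes, 8 had a summit within 1 kb of the canonical TSS of a neighbouring gene and 1 was at the promoter of GRM3. The same share over all shared peaks outside the list was not counted, so whether 8 of 17 is usual cannot be told. In the 3′ flank of GRIN2D, a gene of a glutamate-binding NMDA subunit, the summit lay 253 bp from the TSS of CYTH2, with −log10 p values of 11.3 (replicate 1) and 17.6 (replicate 2) and a TGACAG 4 bp away. In the flank of GRIN3B it lay 987 bp from the TSS of ABCA7, with 18.9 and 7.79 and a TGACAG 9 bp away. The flank peak of GRIK2 at 235 bp from the TSS of ASCC3 had 5.95 and 7.03 and a TGACAG 2 bp away. These 3 were chosen after their values were seen, and each has a receptor gene in reach only through the 100 kb window.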
